A study of Homo sapiens with 24 samples.

Results

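Detained introns of 500 to 1499 bases were described across HEK293T cells given an inhibitor of either enzyme of O-GlcNAc cycling. They were chosen by length from the bins that the authors' tables class as detained introns, and 1328 of 4769 such bins fell in this range, in 1071 gene groups. Their median width was 924.5 bases, 793 bins were shorter and 2648 were longer. HEK293T is an established human embryonic kidney line. In one experiment the cells received OSMI-2 at 10 µM, which inhibits the O-GlcNAc transferase OGT, and in the other they received TMG at 5 µM, which inhibits the O-GlcNAcase that the tables call MGEA5. Each drug was applied for 2 h or 6 h, and each experiment and time had DMSO libraries of its own, which makes 8 groups. The labels list 24 samples, and 23 libraries were used, with 3 in every group except OSMI-2 at 6 h, where 2 were used and the third was not analysed here. A stranded kit was used on RNA selected for polyA tails. The RNA was prepared with Trizol or a column kit, with no record of which sample had which. No label says that the replicates of a group were separate cultures, so the p-values measure the spread between these libraries, which may be technical. Libraries of a group are named a, b and c, as in the column names.

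Detained introns are introns that remain in transcripts which are otherwise spliced and polyadenylated. Such transcripts are held in the nucleus, where they can be spliced later or degraded, so the intron sets how much of a gene's RNA reaches the cytoplasm. OGT adds a single sugar, O-linked N-acetylglucosamine, to nuclear and cytoplasmic proteins and MGEA5 removes it, and detained introns in the transcripts of both enzymes are known to respond to the level of this modification.

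The ends of these introns are shown first for members to which the results below return, since the ends are what the spliceosome reads. The sequences come from GENCODE 29 transcripts on GRCh38, and they could be read for 174 members. Of these, 173 were matched by gene, chromosome, strand and exact intron length. OGT_E007 was placed by its offset in an annotated OGT exon that is as long as bins E004 to E008 together. The donor lines run from 10 exon bases to 30 intron bases with the 9-base donor window in capitals, 3 bases of exon and 6 of intron. The acceptor lines run from 40 intron bases to 10 exon bases with the last 2 intron bases in capitals. OGT_E007 lies in the transferase gene itself, at chrX:71546497-71547906 on the plus strand of GRCh38 (chrX:70766347-70767756 in the hg19 coordinates of the tables).
OGT_E007 donor: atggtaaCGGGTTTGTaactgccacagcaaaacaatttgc
OGT_E007 acceptor: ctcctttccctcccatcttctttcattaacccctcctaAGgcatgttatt
DDB1_E004, in the gene of a DNA damage-binding subunit of an E3 ubiquitin ligase, lies at chr11:61300933-61302256 on the minus strand of GRCh38 (chr11:61068405-61069728 in hg19).
DDB1_E004 donor: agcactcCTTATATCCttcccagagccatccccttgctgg
DDB1_E004 acceptor: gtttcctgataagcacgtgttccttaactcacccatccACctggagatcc
CLK1_E011, in the gene of a kinase of splicing factors, lies at chr2:200860216-200861237 on the minus strand of GRCh38.
CLK1_E011 donor: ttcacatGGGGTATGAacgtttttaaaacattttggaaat
CLK1_E011 acceptor: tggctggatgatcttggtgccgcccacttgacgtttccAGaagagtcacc
EIF4A3_E004, in the gene of the helicase of the exon junction complex, lies at chr17:80136336-80137385 on the minus strand of GRCh38.
EIF4A3_E004 donor: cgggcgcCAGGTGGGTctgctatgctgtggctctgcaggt
EIF4A3_E004 acceptor: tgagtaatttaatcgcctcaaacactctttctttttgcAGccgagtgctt
HARS_E009, in the gene of histidyl-tRNA synthetase, lies at chr5:140678016-140679001 on the minus strand of GRCh38.
HARS_E009 donor: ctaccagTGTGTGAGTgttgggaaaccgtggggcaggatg
HARS_E009 acceptor: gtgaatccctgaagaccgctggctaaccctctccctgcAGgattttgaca

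Of the 174 introns, 172 ran from GT to AG, 1 ran from GC to AG, and DDB1_E004 ran from AT to AC. Introns with AT and AC ends belong to the rare class that is mostly removed by the minor, U12-type spliceosome. The donor window of the GT to AG introns matched the letters CAGGTAAGT, read on the transcribed strand only, at a median of 6 of 9 positions (range 3 to 9), and 2 of them (1.16%) held these letters exactly. Their GC content had a median of 49.9%, and pyrimidines made up a median of 70% of the 20 bases before the last 3 of the intron. The same figures over introns that are not detained were not computed. The flanks were coding on both sides for 146 of the 174. All 5 introns shown lie inside an exon of an annotated retained-intron transcript, which is why their sequence could be read. No sequence was read for MGEA5_E008.

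Library totals ran from 39465746 to 100161560 counts. Replicates differed by more than counting noise over genes in all 22 pairs, with a chi-square per degree of freedom of 4.16 to 287, and over the members it was 1.02 to 6.51. The dependence of gene counts on GC content differed between the experiments, with slopes of 0.303 to 1.01 (log2 per 10 points of GC) in the OSMI-2 libraries and their controls and of -0.34 to -0.652 in the TMG libraries and theirs. The lowest slope of the OSMI-2 experiment, 0.303, was that of DMSO 6 h library a. Experiment and GC dependence cannot be told apart, so values are compared within an experiment unless stated. Slopes also differed within the TMG experiment, at -0.34 to -0.381 in DMSO at 2 h and -0.449 to -0.617 in DMSO at 6 h. They were -0.375 to -0.45 in TMG at 2 h and -0.61 to -0.652 in TMG at 6 h. The part of GC dependence in the comparisons of that experiment was not tested. Of 8 genes used as markers of the line, 7 were in the tables and SALL4 was not listed. In CPM (counts scaled to the library total), VIM stood at 306 to 787, KRT18 at 16.8 to 112, KRT8 at 9.33 to 70.5, ENO2 at 7.92 to 34.1, NEFL at 15.7 to 31.3, PAX2 at 1.21 to 4.2 and NEFM at 0.3 to 2.2. Of 11 markers of other cell types 2 were in the tables, among them COL1A1 at 6.28 to 20.4 CPM, which is above PAX2 and NEFM.

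The level of an intron is given below as a percent of its gene, which is the intron count over the sum of the gene's bins outside detained introns. Of the 1328 members, 1208 had a mean of at least 10 counts, 120 had fewer, and 1 had no count in any library. Over the 1208, the median percent of the gene, taken first over libraries, was 0.902%, with 10th and 90th percentiles of 0.205% and 3.87%. It was 0.740% for detained introns under 500 bases and 1.20% for those of 1500 bases or more. Members at under 1% of their gene numbered 651, and 23 were above 10%. Among genes with a mean of at least 100 counts the highest were SPIN3_E005 and TNFRSF25_E007, both at a median of 27.4%, the latter in the gene of a receptor of the tumour necrosis factor family. AGBL3_E003 followed at 24.1%, then RHBDD3_E006 at 21.8%, PBX4_E003 at 20.2%, ATP6V1B1_E007 at 17.1% and TRIM3_E003 at 17%. PABPC1L_E011 stood at 15.4%, MOK_E007 at 15% and MTL5_E006 at 14.8%. Over all 23 libraries, of every drug and time, these introns spread widely, from 16.8% to 80.6% for TNFRSF25_E007 and from 16.8% to 37.2% for RHBDD3_E006. Differences between neighbours in this order were not tested.

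The libraries differed most by one control group. The members took 0.0774% ± 0.00637 (SD, n = 3) of all counts in DMSO at 2 h of the OSMI-2 experiment and 0.0736% ± 0.00795 (n = 3) in OSMI-2 at 2 h. In DMSO at 6 h they took 0.360%, 0.292% and 0.232%, and in OSMI-2 at 6 h 0.0797% and 0.0968%. In the TMG experiment the share was 0.127% ± 0.0109 (n = 3) in DMSO at 2 h, 0.158% ± 0.0118 (n = 3) in TMG at 2 h, 0.169% ± 0.0293 (n = 3) in DMSO at 6 h and 0.193% ± 0.0131 (n = 3) in TMG at 6 h. The DMSO 6 h libraries of the OSMI-2 experiment were thus the 3 highest of all 23, and the OSMI-2 6 h libraries lay close to the 2 h libraries of the same experiment. As a share of all counts in detained introns, the members held 28.7% to 31.0% in every group. The level of the median member was also highest in that DMSO group. It was 1.89%, 1.71% and 1.43% of the gene in DMSO at 6 h of the OSMI-2 experiment against 0.482% and 0.576% in OSMI-2 at 6 h. By group mean, 902 of the 1208 members were highest in that DMSO group, 176 in TMG at 6 h, 43 in TMG at 2 h and at most 38 in any other group. The lowest group mean was that of OSMI-2 at 2 h for 391 members, of OSMI-2 at 6 h for 365 and of DMSO at 2 h of the same experiment for 251. These orders of groups, and that of all 23 libraries, run across both experiments and carry whatever differs between them.

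**Figure D1:**
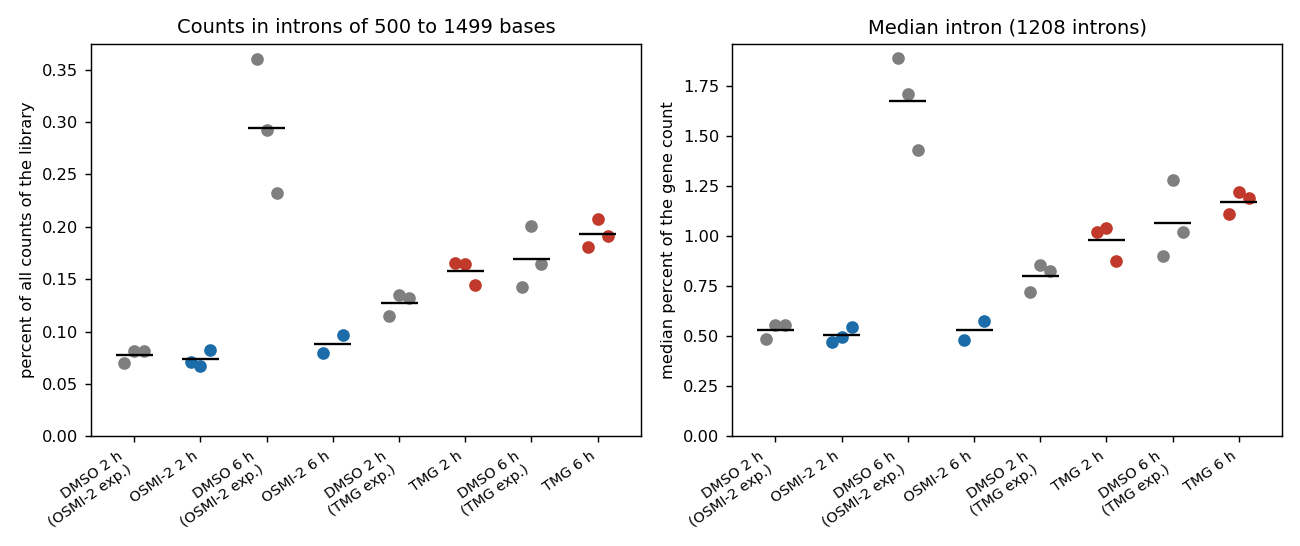
Each point is a library and each bar a group mean: the left panel gives the percent of all counts that fell in detained introns of 500 to 1499 bases, the right panel the median percent of the gene over 1208 introns. The 3 DMSO 6 h libraries of the OSMI-2 experiment, at 0.232% to 0.360% of counts, lie above all others.

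The genes of the enzymes that the drugs inhibit carried members that differed at both times. OGT_E007, 1410 bases long, made up 3.44%, 4.41% and 5.08% of the OGT count in DMSO at 2 h of the OSMI-2 experiment and 0.614%, 0.457% and 1.03% in OSMI-2 at 2 h. At 6 h it stood at 7.33%, 7.68% and 5.85% in DMSO and at 0.831% and 0.943% in OSMI-2. Every OSMI-2 library was below every DMSO library at both times. In the TMG experiment OGT_E007 was at 7.46%, 8.34% and 8.15% in DMSO at 2 h and at 10.0%, 9.72% and 9.77% in TMG. At 6 h it was at 4.07%, 4.58% and 4.05% in DMSO and at 11.3%, 11.2% and 11.3% in TMG. Here every TMG library was above every DMSO library at both times.

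Each intron was tested in 2 ways, over all detained introns of the tables. The level test is edgeR's quasi-likelihood test on counts, and the relative test is limma's on the log2 ratio of intron to gene counts (with 1 added to both), each adjusted by the Benjamini-Hochberg method and called at an adjusted p under 0.05. OGT_E007 changed in level by -2.16 (log2, SE 0.25, edgeR adjusted p = 6.52e-06) with OSMI-2 at 2 h and by -4.86 (SE 0.35, edgeR adjusted p = 5.62e-40) at 6 h. Relative to OGT the changes were -2.66 (SE 0.315, limma adjusted p = 0.0177) and -2.92 (SE 0.316, limma adjusted p = 2.54e-09). With TMG its level rose by 0.26 (SE 0.0843, edgeR adjusted p = 0.0393) at 2 h and by 0.93 (SE 0.167, edgeR adjusted p = 0.000311) at 6 h. Relative to OGT the value at 2 h was 0.30 (SE 0.146, limma adjusted p = 0.218), which did not pass, and the rise at 6 h was 1.42 (SE 0.214, limma adjusted p = 0.00342). The TMG 2 h call on level ended when counts were scaled on detained introns alone, where the value was -0.03. The OGT count outside detained introns was 171 ± 16.2 CPM (SD, n = 3) in TMG at 6 h and 241 ± 20.3 (n = 3) in its DMSO group. In the OSMI-2 experiment at 6 h it was 46.3 CPM (36.9 and 55.7) with the drug and 226 ± 130 (n = 3) in DMSO, where library a had 376. At 2 h it was 61.6 ± 17.1 (n = 3) with the drug and 42.2 ± 12.4 (n = 3) in DMSO. Most members were high in that DMSO 6 h group. In the 6 h changes of OGT_E007, and of MGEA5_E008 below, the part of the drug and that of this control group cannot be told apart.

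OGT_E007 has a neighbour, OGT_E005, of 1708 bases, which is longer than the range taken here, and the 153 bases of bin E006 lie between them. The counts of OGT_E007 were 68, 106 and 82 in DMSO and 28, 36 and 29 in OSMI-2 at 2 h, and those of OGT_E005 were 54, 84 and 65 against 30, 24 and 17. At 6 h OGT_E007 had 1149, 545 and 526 counts in DMSO against 26 and 30 in OSMI-2, and OGT_E005 had 1048, 439 and 448 against 14 and 37. The bin between them had 203, 115 and 107 counts in DMSO and 4 and 3 in OSMI-2 at 6 h. All 3 bins were lower in each OSMI-2 6 h library than in any DMSO 6 h library.

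MGEA5_E008, 1375 bases at chr10:103553756-103555130 of hg19 on the minus strand, lies in the gene of the enzyme that removes the sugar. It made up 0.880%, 1.01% and 0.875% of the MGEA5 count in DMSO at 2 h of the OSMI-2 experiment and 0.289%, 0.403% and 0.376% in OSMI-2. At 6 h the values were 2.93%, 2.76% and 1.97% in DMSO and 0.592% and 0.655% in OSMI-2. In the TMG experiment it stood at 1.90%, 2.25% and 1.86% in DMSO at 2 h against 4.27%, 4.44% and 3.94% in TMG, and at 1.22%, 1.73% and 1.39% in DMSO at 6 h against 3.97%, 5.10% and 4.17%. The groups did not overlap in any of the 4 drug comparisons. Its level changed by -1.96 (log2, SE 0.32, edgeR adjusted p = 0.00136) with OSMI-2 at 2 h and by -3.98 (SE 0.373, edgeR adjusted p = 2.97e-23) at 6 h. It rose by 1.21 (SE 0.123, edgeR adjusted p = 7.85e-09) with TMG at 2 h and by 2.33 (SE 0.193, edgeR adjusted p = 7.74e-16) at 6 h. Relative to MGEA5 the change with OSMI-2 was -1.32 at 2 h (SE 0.217, limma adjusted p = 0.162), which did not pass, and -1.92 at 6 h (SE 0.334, limma adjusted p = 3.87e-06). With TMG it was 1.07 at 2 h (SE 0.164, limma adjusted p = 0.0457) and 1.61 at 6 h (SE 0.241, limma adjusted p = 0.00342). The relative call at 2 h ended without any 1 of the 6 libraries, with values of 1.02 to 1.16 and limma adjusted p of 0.0834 to 0.244, and with all libraries in 1 fit (limma adjusted p = 0.0695). The third member in an O-GlcNAc gene is UAP1_E011, in the gene of the enzyme that makes the sugar's activated donor. It fell by 2.05 (SE 0.455, edgeR adjusted p = 1.99e-05) with OSMI-2 at 6 h and passed in no TMG comparison.

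**Figure D2:**
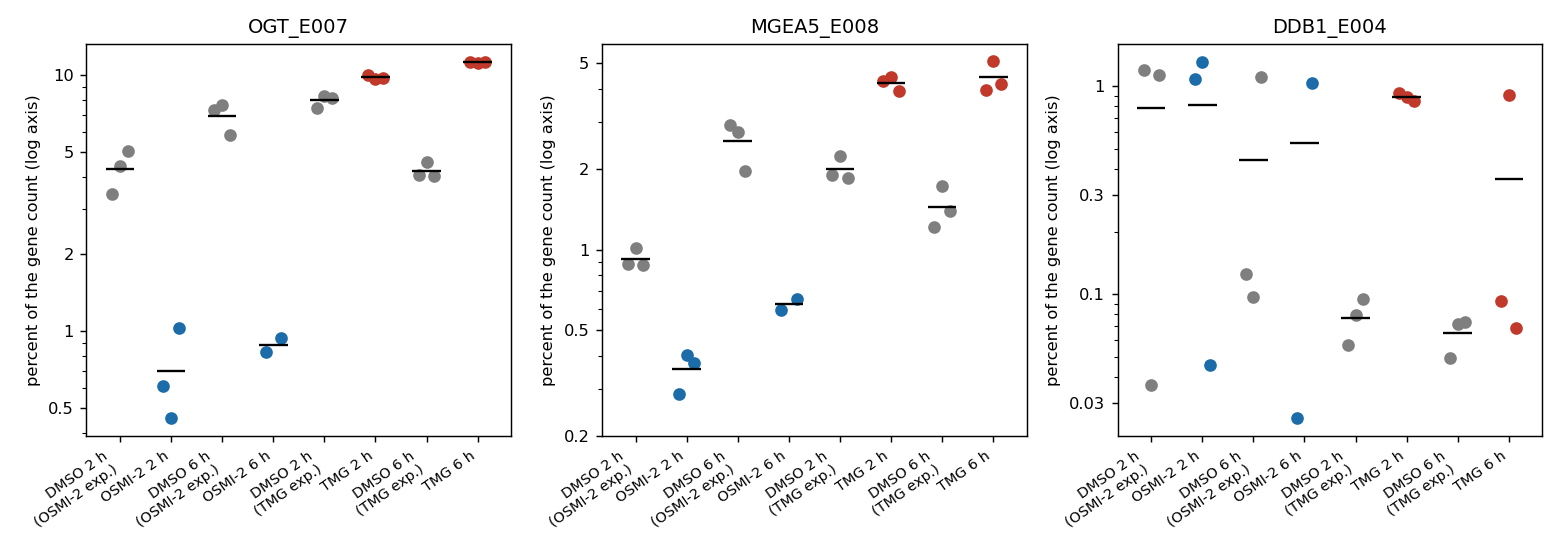
Each point is a library and each bar a group mean of the intron's percent of its gene, on a log axis, for OGT_E007, MGEA5_E008 and DDB1_E004 in the 8 groups. OGT_E007 and MGEA5_E008 are low in every OSMI-2 library and high in every TMG library beside their own DMSO groups, and DDB1_E004 takes a high or a low level that differs between libraries of 1 group.

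The authors' deposited table of bin usage gives OGT_E007 a log2 fold of -2.75 and -2.80 with OSMI-2 at 2 h and 6 h and of 0.26 and 1.32 with TMG. For MGEA5_E008 the authors' deposited table has -1.31 and -2.08 with OSMI-2 and 1.03 and 1.59 with TMG.

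With OSMI-2 at 2 h few members passed. Of 956 members tested for level 2 were lower and none higher, OGT_E007 and MGEA5_E008, against 0.129% of all detained introns called in that comparison. In the relative test 1 of 958 members was lower, OGT_E007, against 0.0643% of all detained introns. Unadjusted p was under 0.05 for 24 members in level. The median change over members was -0.09 (log2) in level, and -0.07 over all detained introns. The call in the relative test ended without OSMI-2 library a or without DMSO library b, where no member passed.

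The libraries labelled OSMI-2 at 6 h held less of most members than those labelled DMSO at 6 h. Those DMSO libraries stood apart from the other DMSO groups: the median member was at 1.68% ± 0.234 (SD, n = 3) of its gene there, at 0.534% ± 0.0421 (n = 3) in DMSO at 2 h and at 0.529% (0.482% and 0.576%) in OSMI-2 at 6 h. An effect of the drug and a property of this 1 control group cannot be told apart in the counts that follow, and the labels of these libraries were not tested. Of 1305 members tested for level, 1147 were lower and 7 higher. An intron could enter this test through the high DMSO libraries alone, and 956 members were tested at 2 h. Of all detained introns tested 86.9% were called, 86.3% lower and 0.599% higher. The median change was -1.52 (log2), beside -1.55 over all detained introns. In the relative test 1146 of 1288 were lower and 2 higher, with a median of -1.62. Of all detained introns 89.2% were called there, 89% lower and 0.217% higher, with a median of -1.63. The members thus moved as detained introns of any length did. Without DMSO 6 h library a, which stood apart in GC dependence, 1095 members were lower and 8 higher in level. The scaling bears on these counts: with factors from detained introns alone, 58 members were lower and 128 higher, and the median gene then changed by 1.69 (log2) in place of 0.20. The percent of the gene, which needs no scaling between libraries, does not depend on this choice.

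After OGT_E007 and MGEA5_E008 the largest falls in level at 6 h, among members with at least 50 counts, were in RAD54L_E016 and GNPAT_E016. RAD54L encodes a motor protein of homologous recombination, and its intron, of 552 bases, had 151, 193 and 136 counts in DMSO and 15 and 30 in OSMI-2. It fell by 3.01 (SE 0.353, edgeR adjusted p = 8.52e-15). GNPAT, a peroxisomal enzyme of ether lipid synthesis, fell by 2.87 (SE 0.365, edgeR adjusted p = 6.81e-13) in E016. ARHGEF11_E004 also fell by 2.87. ATXN2L_E017 fell by 2.76, KMT2D_E005, in a methyltransferase of histone H3 lysine 4, by 2.75, and DDX23_E003, in a helicase of the U5 particle, by 2.74. KMT2D_E005 had 100, 101 and 80 counts in DMSO and 13 and 18 in OSMI-2, with no overlap. Relative to the gene, under the same limit of 50 counts, the largest falls were in HECTD3_E008 (by 3.21, SE 0.347), ATXN2L_E017 (by 3.13), TSC2_E049 (by 3.07), TSC2_E013 (by 3.00) and HUWE1_E018 (by 2.96). HECTD3 and HUWE1 are E3 ubiquitin ligases, and TSC2 is a part of the complex that restrains mTORC1.

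The 7 members that were higher in level with OSMI-2 at 6 h were ADAMTS2_E014 (1.29), PINK1_E006 (1.21), GAREML_E006 (0.98), HTT_E010 (0.93), NDST1_E008 (0.80), TCEA2_E002 (0.79) and ANKS6_E013 (0.76). Of these, ADAMTS2_E014, PINK1_E006, GAREML_E006 and HTT_E010 lie outside the rule for named introns (under 50 counts) and were named after their values were seen. All 7 except HTT_E010 were also called lower in level in DMSO at 6 h than at 2 h of this experiment. Those changes ran from -0.70 (TCEA2_E002) to -1.69 (PINK1_E006), and the comparisons share the DMSO 6 h libraries. None of the 7 was called higher in the relative test. TCEA2_E002, 507 bases in the gene of a transcription elongation factor, carries a second bin class, and its counts there can include exon reads. It had 407 and 754 counts in OSMI-2 and 215, 347 and 316 in DMSO, which were 16.8% and 17.4% of the gene against 11.4%, 12.4% and 12.2%. Its level differed by 0.79 (SE 0.263, edgeR adjusted p = 0.00379), and it did not pass the relative test. The 2 members higher in the relative test were RPL9_E004 (0.89), whose groups overlapped, and VSIG10_E010 (0.77), both also named after their values were seen.

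The lists of gene groups, which were drawn up with earlier results of these data known, were mostly lower at 6 h, as the members were. Of 27 members in genes of the spliceosome and its cofactors 26 were lower in level, with a median of -1.47. SON_E019, in a scaffold of nuclear speckles, had 363, 199 and 192 counts in DMSO and 41 and 79 in OSMI-2, and fell by 2.26 (SE 0.311, edgeR adjusted p = 2.43e-11). SRRT_E010, in a partner of the nuclear cap-binding complex, fell by 2.12, SRRM1_E005, in a splicing coactivator, by 1.98, and PRPF40B_E004, in a factor of early spliceosome assembly, by 2.44. Among kinases of splicing factors and SR proteins 2 of 3 were lower. CLK2_E013 had 572, 529 and 534 counts in DMSO against 97 and 216 in OSMI-2 and fell by 2.02 (SE 0.29, edgeR adjusted p = 1.36e-10). CLK1_E011, whose ends are shown above, fell by 1.18 in level, but as a percent of CLK1 it was 9.24%, 9.59% and 9.42% in DMSO and 8.70% and 8.10% in OSMI-2. Of 2 hnRNP members 1 was lower, HNRNPL_E009 at -1.31 (SE 0.275, edgeR adjusted p = 6.46e-06).

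All 13 members in genes of aminoacyl-tRNA synthetases, which charge tRNAs, were lower (median -1.85), with RARS_E005 at -2.67, TARS2_E007 at -2.56, RARS2_E004 at -2.55 and WARS_E008 at -2.25. All 5 in factors of nonsense-mediated decay were lower (median -1.69), among them EIF4A3_E004 at -1.55. In DNA repair genes 17 of 18 were lower (median -1.68), with FANCI_E042 at -2.52, FANCD2_E046 at -2.41 and FANCL_E004 at -2.26, all of the Fanconi anaemia pathway of crosslink repair. Among enzymes of histone lysine methylation 15 of 17 were lower (median -1.71), with SETD4_E004 at -2.40 and PHF8_E010, in a demethylase, at -2.26. For DEAD and DEAH box helicases the count was 21 of 23 (median -1.63), with DHX29_E004 at -2.86, DDX46_E015 at -2.52 and DDX11_E030 at -2.49. It was 13 of 15 for cell cycle genes (median -1.44), with MCM4_E017 and CDC45_E019, in parts of the replicative helicase, both at -2.26, and with E2F4_E005 at -1.74. It was 11 of 12 for ZNF genes (median -1.38), with ZNF789_E006 at -2.56, and 3 of 3 for proteasome subunits, where PSMA1_E008, at -0.79, had overlapping groups. Of all detained introns 86.3% were lower, and the differences between the lists and this share were not tested.

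With TMG at 2 h most members had small positive changes, and a minority passed the threshold. In level 972 of 1154 members (84.2%) had a positive change, beside 84.5% of all detained introns. Relative to the gene the shares were 84.8% and 86.2%. Of 1154 tested for level, 100 were higher and 4 lower. Of all detained introns 9.81% were called, 9.69% higher and 0.123% lower. The median change was 0.26 (log2) over members and 0.29 over all detained introns. The relative test called 2 of 1146, both higher, DDB1_E004 and MGEA5_E008, with 0.124% of all detained introns called, and unadjusted p was under 0.05 for 254. These counts depend on the model. With the variance trend of limma drawn on the intron's mean count, an alternative added after results were seen, the relative test called 115 (113 higher), and the authors' deposited table gives 40 members an adjusted p under 0.05 (39 higher). In level, DESeq2 called 43, a fit of all libraries together 2, and a fit without TMG library b 15, without TMG library a 24, without DMSO library a 40 and without DMSO library c 39. Scaled on detained introns alone, 7 were higher and 13 lower.

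Besides DDB1_E004 and MGEA5_E008, the largest rises with TMG at 2 h, among members with at least 50 counts, were in RACGAP1_E006, MCM4_E017, C17orf85_E008 and SNRNP200_E017. RACGAP1, a regulator of cytokinesis, rose by 0.97 (SE 0.205, edgeR adjusted p = 0.00309) in E006. MCM4_E017, in a subunit of the replicative helicase, had 35, 45 and 45 counts in DMSO and 92, 75 and 69 in TMG and rose by 0.96 (SE 0.195, edgeR adjusted p = 0.00208). C17orf85_E008 rose by 0.86 (SE 0.166, edgeR adjusted p = 0.00134), and SNRNP200_E017, in the helicase that unwinds the U4 and U6 RNAs, by 0.86 (SE 0.207, edgeR adjusted p = 0.00821). CCT5_E011, in a chaperonin subunit, rose by 0.72, and SON_E019 by 0.69 (SE 0.13, edgeR adjusted p = 0.00106). SON_E019 had 130, 229 and 151 counts in DMSO and 259, 267 and 265 in TMG, and as a percent of SON it was 0.744%, 0.992% and 0.767% against 1.22%, 1.24% and 1.19%. The TMG libraries of SON_E019 were the tighter group and lay above every DMSO library.

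The counts by list are to be read against the 9.69% of all detained introns that were higher in level. Members with more reads passed more often, and the lists were not matched for read number. In level, 8 of 26 members in genes of the spliceosome and its cofactors rose with TMG at 2 h (median 0.32), which besides SON and SNRNP200 included RBM39_E026 (0.49) and SF1_E014 (0.48), the latter in the protein that binds the branch point. Of 15 in cell cycle genes 3 rose, MCM4_E017, CDC6_E012 (1.20) and MCM5_E017 (0.61), all in genes of replication licensing, although the libraries of MCM5_E017 overlapped. In DNA repair genes 2 of 18 rose, DDB1_E004 and FANCD2_E046 (0.83), and among helicases 2 of 23, DDX42_E008 (0.46) and DDX17_E004 (0.27). HNRNPL_E009 rose by 0.43 (SE 0.0959, edgeR adjusted p = 0.00494), with 365, 492 and 375 counts in DMSO and 526, 557 and 512 in TMG. HARS_E009 (0.49) was 1 of 13 in synthetase genes and ZNF282_E008 (0.67) 1 of 10 in ZNF genes. In the relative test no member of the spliceosome, cell cycle, helicase, synthetase, hnRNP or ZNF lists passed, and in the DNA repair list 1 of 18 did, DDB1_E004. None of the members in decay factors, histone methylation enzymes, proteasome subunits or the kinase and SR list passed in level. Scaled on detained introns alone DDX17_E004 was at -0.03. The 4 members lower with TMG at 2 h were AP2A2_E020 (-1.07), EIF2B1_E002 (-0.63), C1orf63_E007 (-0.52) and TCEA2_E002 (-0.40). EIF2B1_E002 had overlapping groups and was named after its values were seen. AP2A2_E020 and EIF2B1_E002 are among the introns, described below, whose libraries differed widely within groups. In DMSO at 6 h of the same experiment AP2A2_E020 stood at 0.434%, 0.797% and 1.62% of its gene. TCEA2_E002 was at 11.6%, 12.9% and 11.7% of its gene in TMG and at 15.5%, 14.4% and 15.3% in DMSO.

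DDB1_E004, the intron with AT and AC ends, had the largest rise with TMG at 2 h, by 3.49 (SE 0.162, edgeR adjusted p = 1.10e-19) in level and by 3.51 (SE 0.24, limma adjusted p = 7.69e-05) relative to DDB1. Its counts were 21, 35 and 35 in DMSO and 345, 316 and 329 in TMG. In the other groups it did not follow the labels. It had 633, 19 and 661 counts in DMSO and 1026, 1404 and 32 in OSMI-2 at 2 h, and 58, 74 and 796 in DMSO and 21 and 1020 in OSMI-2 at 6 h. In the TMG experiment at 6 h it had 21, 26 and 28 counts in DMSO and 40, 309 and 26 in TMG. The intron thus stood either near 1% of the gene or near or below 0.1%, and both levels occurred within 5 of the 8 groups. Its call with TMG at 6 h (2.44, SE 0.388, edgeR adjusted p = 1.87e-05) came from 1 library, and without TMG library b the value was 0.38 (edgeR adjusted p = 0.996). In a fit of all libraries together its TMG 2 h value did not pass (edgeR adjusted p = 0.0836). The DDB1 count outside detained introns differed little, at 775 ± 12.2 CPM (SD, n = 3) in TMG at 2 h and 769 ± 19.2 (n = 3) in DMSO. 

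To see how common such behaviour was, the highest over the lowest percent of the gene was taken within each group for the 435 members with a mean of at least 50 counts, a measure chosen after DDB1_E004 was seen. Its median over members was 1.33. The ratio was over 2 in no group for 319 members and in at least 4 of 8 groups for 5, DDB1_E004, EIF2B1_E002, AP2A2_E020, RPL9_E004 and NAA40_E004. EIF2B1_E002, in a subunit of a translation initiation factor, had 144, 271 and 34 counts in OSMI-2 at 2 h and 47, 166 and 52 in DMSO at 6 h of the TMG experiment. AP2A2_E020, in a subunit of the clathrin adaptor AP-2, had 25, 26 and 160 counts in DMSO and 216, 294 and 199 in OSMI-2 at 2 h. As a percent of AP2A2 these were 0.282%, 0.319% and 1.51% against 1.48%, 1.64% and 1.64%, which overlap. The cause of their spread was not tested. DDB1_E004 was also at -1.01 (SE 0.456, edgeR adjusted p = 0.0333) in DMSO at 6 h against 2 h of the OSMI-2 experiment, with overlapping groups.

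TMG at 6 h called few members. In level 3 of 1193 were higher, MGEA5_E008, OGT_E007 and DDB1_E004, and none lower, while of all detained introns 0.19% were called, 0.166% higher and 0.0237% lower. In the relative test 2 of 1184 were higher, MGEA5_E008 and OGT_E007, with 0.0957% of all called, 0.0718% higher and 0.0239% lower. The median change was 0.14 (log2) in level and 0.16 relative to the gene, and unadjusted p was under 0.05 for 85 members in level. The DMSO 6 h libraries of this experiment spread more than the TMG ones, with the median member at 0.900%, 1.28% and 1.02% of its gene against 1.11%, 1.22% and 1.19%. Without DMSO library b, the highest of the 3, 77 members were higher and 3 lower in level.

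**Figure D3:**
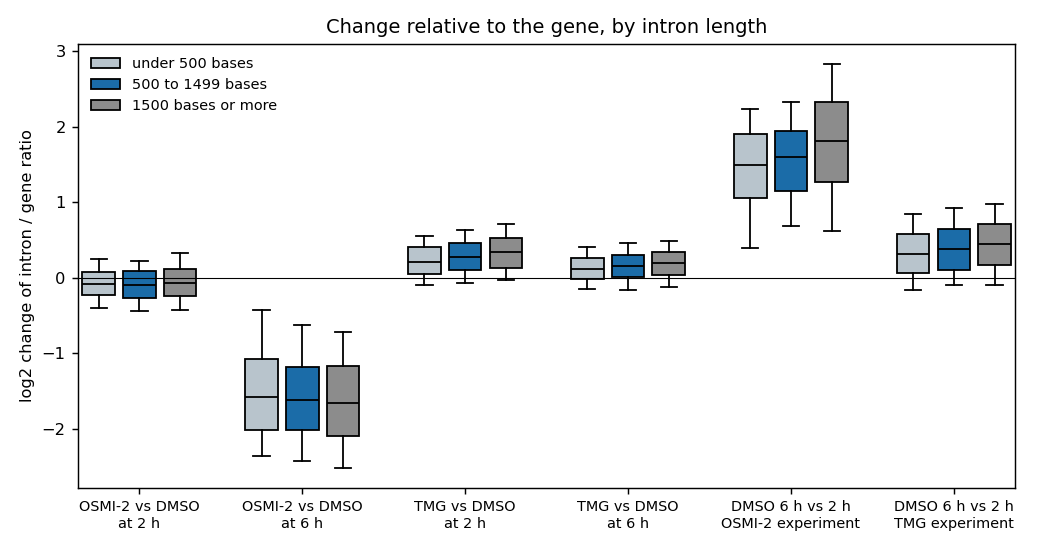
Boxes give the quartiles, with the median as a line, and whiskers the 10th to 90th percentile of the log2 change in the intron to gene ratio for detained introns under 500, of 500 to 1499, and of 1500 or more bases in the 6 comparisons. At OSMI-2 6 h the median was -1.57, -1.62 and -1.66 from the shortest to the longest class, and at TMG 2 h 0.21, 0.28 and 0.34.

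The DMSO libraries at 6 h also differed from those at 2 h. In the OSMI-2 experiment an effect of time and a property of that 1 DMSO 6 h group cannot be told apart. In the OSMI-2 experiment 1124 of 1260 members were higher and 16 lower in DMSO at 6 h than at 2 h, with a median of 1.59 (log2). An intron could enter this test through the DMSO 6 h libraries alone. Of all detained introns 90.3% were called, 88.5% higher and 1.79% lower, with a median of 1.70. Relative to the gene 1120 of 1250 were higher and 10 lower, with 89.6% of all called, 88.3% higher and 1.27% lower. This comparison and that of OSMI-2 at 6 h share the DMSO 6 h libraries, so their values go opposite ways in part by construction. Among members with at least 50 counts and no overlap of groups, HUWE1_E024 rose by 3.10 (SE 0.341, edgeR adjusted p = 8.29e-12), RAD54L_E016 by 2.95, WDR27_E031 by 2.90, ZMIZ2_E010 by 2.89, MCM8_E009 by 2.82, GABBR1_E019 by 2.65, and SRRM1_E005 and SON_E019 by 2.61. SON_E019 stood at 0.173%, 0.259% and 0.220% of SON at 2 h and at 2.11%, 1.38% and 1.31% at 6 h, with no overlap. Relative to the gene and under the same limits, the largest rises besides HUWE1_E024, ZMIZ2_E010 and SON_E019 were in MED24_E023 (2.87) and PFKL_E010 (2.84), genes of a Mediator subunit and a glycolytic enzyme. Members lower at 6 h included ANKS6_E013 (-1.10), TCEA2_E002 (-0.70) and MON1A_E004 (-0.60) in level, and MPP3_E012 (-0.71) relative to the gene. With scaling on detained introns alone 59 members were higher and 201 lower in level.

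In the TMG experiment the same comparison of DMSO libraries gave smaller values. The GC slopes of these DMSO groups did not overlap, so time and GC dependence cannot be told apart here. In level 222 of 1165 members were higher and 9 lower, with a median of 0.39. Of all detained introns 21.9% were called, 21% higher and 0.904% lower, with a median of 0.41. Relative to the gene 157 of 1156 were higher and 4 lower, with 15.4% of all called, 14.8% higher and 0.589% lower. MCM5_E017 had 45, 63 and 73 counts at 2 h and 180, 208 and 149 at 6 h and rose by 1.69 (SE 0.216, edgeR adjusted p = 8.30e-10). Under the same limits INTS8_E023, in a subunit of Integrator, rose by 1.54, CDCA7_E007 by 1.28, ANKZF1_E011 by 1.22, MCM4_E017 by 1.13, DLD_E006 by 1.01, SARS_E007 by 1.0 and CDC45_E019 by 0.99. Relative to the gene MAN2C1_E005 rose by 1.44, CRELD2_E009 by 1.43 and APBB3_E011 by 1.34. OGT_E007 went the other way and fell by 0.92 (SE 0.227, limma adjusted p = 0.00967) relative to OGT. TCEA2_E002 was at -0.77 in level. The counts varied with the libraries: 376 members passed in level without DMSO 6 h library a, 85 without DMSO 2 h library a, 104 without DMSO 2 h library b, 97 without DMSO 2 h library c, 116 without DMSO 6 h library b and 103 without DMSO 6 h library c. DESeq2 called 111, and with scaling on detained introns alone 27 were higher and 47 lower.

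Whether the drugs differed was tested on the ratio to the gene as the OSMI-2 change minus the TMG change, which also carries whatever differs between the experiments. At 2 h 2 of 1101 members passed, OGT_E007 (-2.96, SE 0.367, limma adjusted p = 0.00205) and MGEA5_E008 (-2.39, SE 0.268, limma adjusted p = 0.00186), with 0.0781% of all detained introns called. At 6 h 1098 of 1266 were lower and 2 higher, with 86.1% of all called, 86% lower and 0.111% higher. Among members with at least 50 counts the largest were those of OGT_E007 (-4.33, SE 0.322, limma adjusted p = 1.71e-07), ATXN2L_E017 (-3.69), MGEA5_E008 (-3.53), TSC2_E013 (-3.45) and PRKCSH_E010 (-3.25). TCEA2_E002 was higher (0.86, SE 0.298, limma adjusted p = 0.0125). The change with OSMI-2 at 6 h differed from that at 2 h for 879 of 1199 members, 876 of them lower and 3 higher, with 72.3% of all called, 72.1% lower and 0.211% higher. For OGT_E007 and MGEA5_E008 this difference did not pass (-0.26, limma adjusted p = 0.601, and -0.61, limma adjusted p = 0.139), which does not show that the changes were equal. Differences between the times were not tested on level. The change with TMG at 6 h against 2 h passed for none of 1169 members by limma, with 0% of all called. Unadjusted p was under 0.05 for 59, and with the variance trend on the mean count 1 passed, OGT_E007 (1.11).

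The 2 drugs have separate controls, so their lists can be compared. Of the 100 members higher with TMG at 2 h, all tested with OSMI-2 at 6 h as well, 99 were lower there, which is 99% of the TMG list and 9.57% of the 1035 lower with OSMI-2. The exception among the 100 was DDB1_E004. Of all 1150 members tested in both, 90% were lower with OSMI-2 at 6 h, and the difference between 99% and this share was not tested. Members with more counts passed more often in both comparisons. At a mean of 100 counts or more 28.1% were called with TMG at 2 h and 92.3% with OSMI-2 at 6 h. At 10 to 19 counts the shares were 1.74% and 78.7%. Both members lower with OSMI-2 at 2 h were among those higher with TMG at 2 h and at 6 h in level, where 9.35% and 0.324% of the members tested in both were higher with TMG.

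**Figure D4:**
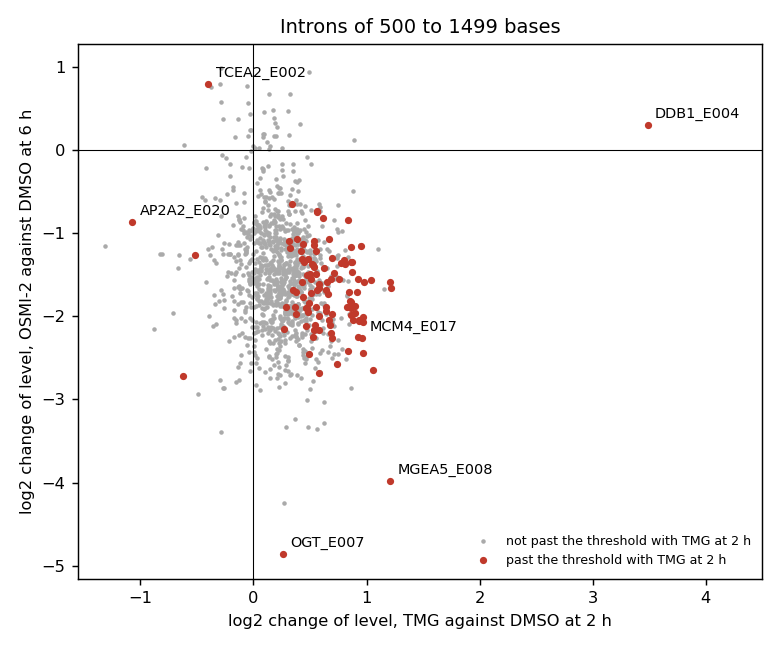
Each point is a detained intron of 500 to 1499 bases tested in both comparisons, with the log2 change of level with TMG at 2 h on the horizontal axis and with OSMI-2 at 6 h on the vertical axis, and red points pass the threshold with TMG at 2 h. Most points lie below 0 on the vertical axis, MGEA5_E008 and OGT_E007 lie lowest among the red points, and DDB1_E004 lies far to the right.

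Of the genes with members, 874 had 1 member, 154 had 2, 29 had 3, 12 had 4, 1 had 5 and 1 had 6. In the OSMI-2 6 h comparison 194 genes had at least 2 tested members, and all members of a gene had 1 sign in 184 of them and all passed in 167. With TMG at 2 h all members had 1 sign in 127 of 171 genes, all passed in 3 and none in 135. Introns of 1 gene could differ. In UBAP2L, a regulator of stress granules, E026 was at -0.17 with OSMI-2 at 6 h while E024, E028 and E031 were at -2.17, -1.89 and -2.24. In DIP2A, E024 was at 0.20 and the other 3 at -1.58, -1.17 and -1.45, and in PITRM1, a mitochondrial protease, E003 was at -0.57 and the other 3 at -1.99 to -2.65. The 6 members of HUWE1 lay between -1.99 and -3.28. These genes were named after their values were seen.

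By length class within the range (500 to 749, 750 to 999, 1000 to 1249 and 1250 to 1499 bases), the median change in level with OSMI-2 at 6 h was -1.56, -1.47, -1.50 and -1.55. With TMG at 2 h it was 0.24, 0.25, 0.27 and 0.30, and 7.02%, 8.13%, 9.32% and 13% of the introns passed. Longer introns collect more reads at the same abundance. By mean count (10 to 19, 20 to 49, 50 to 99 and 100 or more), 1.74%, 6.24%, 12% and 28.1% passed with TMG at 2 h. The median changes of these count classes were 0.22, 0.27, 0.27 and 0.26. The part of read number in the order by length was not tested. Of the introns with sequence, the 16 that passed with TMG at 2 h had a median GC content of 42.5% and the 143 that did not had 51.2%, a difference that was not tested. At the limits the members just inside were PABPC4_E008 and RBM22_E004, both of 500 bases, and MAP3K9_E006 and EIF3H_E006 of 1499 and 1498 bases. With OSMI-2 at 6 h they changed by -1.88, -1.47, -0.98 and -1.03. Just outside lay HPS4_E009 (499 bases, -2.19), ACAD9_E021 (497 bases, -1.48), ABL1_E011 (1500 bases, -1.29) and BRD9_E021 (1501 bases, -0.72).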

How the data were processed

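The tables hold read counts per bin, which the authors deposited per library with the bin's class, position and width. The submitters' processing notes name STAR and hg19, and the counting tool is not given in the sources used here. The authors' deposited tables also carry log2 fold changes and adjusted p-values of bin usage, which served as an alternative and are credited where printed. The deposited tables give 164219 bins in 13236 gene groups over 23 libraries. Totals of 39465746 to 100161560 counts per library set the precision.

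Members are the detained intron bins with a width of 500 to 1499 bases, and 30 carry another class as well. Members and gene lists were chosen with earlier results of these data known. The gene count is the sum of a gene group's bins outside detained introns. Level was tested with edgeR 4.0.16 (TMM over genes and introns together, filterByExpr, quasi-likelihood). Its filter keeps an intron with enough counts in at least as many libraries as the smaller group has, whichever libraries these are. An intron can thus enter through the group where it is high alone, and the number tested is given with each result. The same holds for the limit on the mean count in the ratio test. The ratio to the gene was tested with limma 3.58.1 on log2((intron + 1)/(gene + 1)) where both had a mean of at least 10 counts. For limma 2 versions of the variance trend were run, on the mean log2 ratio (reported) and on the mean intron count, and the second was added as an alternative after results were seen. DESeq2 1.42.0 was an alternative. P-values were adjusted over all detained introns tested, with a threshold of 0.05.

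Introns were named by a rule. In each comparison it takes the 8 largest rises and falls in level, and the 5 largest relative to the gene or in a difference between effects, among those past the threshold with at least 50 counts and, for 2 groups, no overlap. It adds the introns of OGT and MGEA5, up to 4 per list by size of change, the 10 highest levels, and the 2 introns nearest each width limit on either side. On simulated counts edgeR recovered 70.9% of 2-fold changes for OSMI-2 at 6 h (4707 introns) and 70.1% for TMG at 2 h (3901 introns), and limma 44.5% (4700 introns) and 47.4% (3865 introns). Both recovered 100% of 4-fold changes. False calls made up 4.5% and 3.9% of the calls by edgeR and 5.4% and 2.6% of those by limma. The simulation changed 200 introns up or down, left the others unchanged and used a fixed spread between libraries. In the OSMI-2 6 h data most introns were lower and replicates were uneven, so these rates do not give the power of the real tests. Scripts ran in R 4.3.3 and Python 3.11.15. Per-sample index count files were not used here. A few results are not reported here.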

Additional observations from a re-analysis of the deposited data

Results flagged for a closer look

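The change with OSMI-2 minus the change with TMG passed limma's test on the ratio to the gene for 2 members at 2 h and for 1100 at 6 h, and the difference between the 6 h and 2 h changes with OSMI-2 passed for 879. These values were picked out because effects under the same contrast differed between drugs or times by a test of the difference itself. At 2 h the log2 differences between the drugs were -2.96 for OGT_E007 and -2.39 for MGEA5_E008. At 6 h they were -4.33 for OGT_E007, -3.69 for ATXN2L_E017, -3.53 for MGEA5_E008, -3.45 for TSC2_E013 and -3.25 for PRKCSH_E010, and 0.86 for TCEA2_E002. Between the times of OSMI-2 they were -4.02 for EIF2B1_E002, -3.35 for AP2A2_E020, -3.28 for ZMIZ2_E010, -2.92 for RAD54L_E016 and -2.91 for AP1B1_E004. EIF2B1_E002 and AP2A2_E020 are among the 5 introns whose libraries differed within groups. The drugs were used in separate experiments, which cannot be told apart from them here, and both differences that involve OSMI-2 at 6 h rest on DMSO 6 h libraries in which most members were high.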

How the results depend on the processing

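Of 145 values given for named introns 72 kept their call under every alternative run. Of 1692 alternative values 1534 kept direction and call, 143 fell below the threshold, 9 rose above it, 6 changed sign, and 4 more had no adjusted p from DESeq2. No paired analysis was possible because the count columns carry letters in place of the replicate numbers of the sample titles. With scaling on detained introns alone the members called in level were 186 for OSMI-2 at 6 h, 20 for TMG at 2 h, 6 for TMG at 6 h, 260 for DMSO over time in the OSMI-2 experiment and 74 in the TMG experiment. CLK1_E011 (0.32), HNRNPL_E009 (0.17) and PSMA1_E008 (0.71) then changed sign for OSMI-2 at 6 h, and DDX17_E004 (-0.0323) and OGT_E007 (-0.0301) for TMG at 2 h. The cause was not tested.

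DESeq2 called 43 for TMG at 2 h and 111 for DMSO over time in the TMG experiment. A term for GC dependence gave 4 for OSMI-2 at 2 h. All libraries in 1 fit gave, for TMG at 2 h, 2 in level and 0 in the ratio, and 2 in the ratio for OSMI-2 at 2 h and 4 for the drug difference at 2 h. A mean of at least 50 counts, which tests fewer introns, gave in the ratio 607 for OSMI-2 at 6 h, 55 for TMG at 2 h, 504 and 87 for DMSO over time in the OSMI-2 and TMG experiments, 518 for the drug difference at 6 h, 386 for the time difference of OSMI-2 and 1 for that of TMG. The trend on mean counts gave 115 for TMG at 2 h, 4 for TMG at 6 h and 1 for the time difference of TMG. The authors' deposited adjusted p-values gave 2 for OSMI-2 at 2 h, 40 for TMG at 2 h and 5 for TMG at 6 h.

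Leaving out 1 library gave in level 1 to 3 for OSMI-2 at 2 h, 949 to 1150 at 6 h, 15 to 146 for TMG at 2 h, 2 to 80 at 6 h, and 1068 to 1151 and 85 to 376 for DMSO over time in the OSMI-2 and TMG experiments. In the ratio it gave 0 to 2, 1063 to 1149, 1 to 1, 2 to 4, 1024 to 1137 and 64 to 232 in the same order. For the drug difference it gave 2 to 3 at 2 h and 1013 to 1121 at 6 h, and for the time differences 672 to 883 (OSMI-2) and 0 to 1 (TMG). Leaving out 1 library moved the time difference of OSMI-2 for OGT_E007 between -0.531 (without OSMI-2 2 h library b) and 0.0627 (without library c). The share of counts in members without the 10 most counted was 0.0688% and 0.116% in DMSO at 2 h of the OSMI-2 and TMG experiments, 0.145% in TMG at 2 h and 0.177% at 6 h. All members together made up, of all detained intron counts, 29.5%, 29.2%, 30%, 28.7%, 30.7%, 30.5%, 30.5% and 31% from DMSO 2 h to OSMI-2 6 h and from DMSO 2 h to TMG 6 h.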

Other observations

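NAA40_E004, 789 bases in the gene of a histone acetyltransferase, had 27, 12 and 28 counts in DMSO and 41, 30 and 48 in OSMI-2 at 2 h. The libraries differ in depth, and as a percent of NAA40 these were 1.40%, 0.618% and 1.31% against 1.21%, 0.712% and 1.72%, which overlap. At 6 h it had 124, 133 and 114 counts in DMSO and 29 and 87 in OSMI-2, or 4.42%, 3.73% and 3.16% against 1.09% and 2.43%. The 5 members of GCN1L1, a ribosome-associated activator of the integrated stress response, changed by -1.57, -2.50, -1.17, -1.95 and -1.88 (log2 level) with OSMI-2 at 6 h.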
